A study of Homo sapiens with 9 samples.

Results

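The genes described here are 10 secreted antagonists of Wnt signalling: the secreted frizzled-related proteins SFRP1, SFRP2, FRZB (also called SFRP3), SFRP4 and SFRP5, the Wnt inhibitory factor WIF1, and the Dickkopf proteins DKK1, DKK2, DKK3 and DKK4. They were taken by name, as Wnt antagonists often silenced by promoter methylation in colon cancer, and are 10 of the 23284 gene symbols in the RNA-Seq files. The RNA came from 9 cultures of HT-29, a human colon cancer cell line, in 3 groups of 3 biological replicates. The control group (0 µM) received the vehicle DMSO alone, and the other groups received 5 µM or 10 µM of 5-aza-deoxycytidine (5-Aza), a cytidine analogue that inhibits DNA methyltransferases. Treatment lasted 5 days. All groups were a single cell line. DNA methylation itself is not analysed here.

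Wnt proteins act outside the cell by joining a Frizzled receptor to the co-receptor LRP5 or LRP6, which stabilises beta-catenin and turns on genes with TCF/LEF factors at their promoters. The sFRPs and WIF1 bind the Wnt ligand itself, whereas DKK1, DKK2 and DKK4 bind LRP5 and LRP6, together with the Kremen proteins, and take the co-receptor away. In the colon this pathway maintains the stem cells of the crypt. HT-29 cells carry truncated APC, a defect downstream of the receptors on which the antagonists act.

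RefSeq promoter entries (GRCh38.p14) were matched for 6 of the 10 genes: SFRP2, FRZB, SFRP4, SFRP5, WIF1 and DKK1. The 250 bases before the annotated start are printed, 5′ to 3′ on the strand of the gene, for DKK1 and FRZB, the genes whose RNA rose at 5 µM, and for SFRP5, a member that was measured in every library and passed no test. The capitals mark the dinucleotide CG, the site of DNA methylation. DKK1 is at chr10:52314031-52314280 on the plus strand, FRZB at chr2:182866638-182866887 on the minus strand, and SFRP5 at chr10:97772000-97772249 on the minus strand.
DKK1: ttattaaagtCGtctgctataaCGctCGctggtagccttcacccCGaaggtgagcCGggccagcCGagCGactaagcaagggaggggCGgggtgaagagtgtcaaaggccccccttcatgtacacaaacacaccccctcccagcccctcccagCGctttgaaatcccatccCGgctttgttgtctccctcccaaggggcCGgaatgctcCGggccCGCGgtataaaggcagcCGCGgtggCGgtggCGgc
FRZB: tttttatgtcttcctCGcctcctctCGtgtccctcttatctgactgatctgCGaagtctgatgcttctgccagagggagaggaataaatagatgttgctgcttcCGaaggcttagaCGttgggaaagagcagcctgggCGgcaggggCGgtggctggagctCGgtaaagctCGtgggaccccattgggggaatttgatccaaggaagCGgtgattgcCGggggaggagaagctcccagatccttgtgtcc
SFRP5: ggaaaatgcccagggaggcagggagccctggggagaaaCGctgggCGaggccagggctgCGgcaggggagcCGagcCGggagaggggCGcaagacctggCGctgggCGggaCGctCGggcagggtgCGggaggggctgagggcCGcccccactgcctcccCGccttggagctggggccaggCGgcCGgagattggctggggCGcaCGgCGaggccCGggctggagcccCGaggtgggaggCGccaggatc
The dinucleotide CG reads the same on both strands, and it was counted 18 times before DKK1, 11 times before FRZB and 21 times before SFRP5. The counts were 11 for SFRP2, 17 for SFRP4 and 27 for WIF1, against a median of 11 over the 35116 promoters of the table. FRZB and SFRP2 thus stood at the median, and the other members among these 6 above it. As many CG as WIF1 or more were found in 17.7% of all promoters. The letters TATAAA, searched on both strands, occurred only in the DKK1 window among the 6, and in 10.7% of all promoters. These matches describe the reference sequence and say nothing on its methylation in HT-29 cells.

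The deposited values are FPKM, fragments scaled to transcript length and library, and the low values step in whole fragments, so the fragments behind each value could be recovered. All 51 member values above 0, of 90 in total, were whole fragments, with a largest distance of 0.00251 fragments. The step of each gene was itself searched for whole values within 0.01, so this distance is partly set by the search. Fragments were estimated for the 17736 genes with a usable transcript length of 300 bases or more. Over these genes the libraries held an estimated 11865231 to 32444633 fragments, fewest in 10 µM replicate 1 and control replicate 1. The estimated total fragments named below are this sum, which leaves out the other symbols. The FPKM here are relative values. A single DKK1 fragment was worth 479 FPKM in control replicate 1 and 186 FPKM in 5 µM replicate 3. Summed over all genes, they reached 3692000000 to 5908000000 FPKM per library, far above the usual scale of this unit. In 5 µM replicate 3, the 149086 FPKM of DKK1 stood for 801 of an estimated 32444633 fragments. A large FPKM value is therefore no sign of high expression by itself. Relative to the estimated fragments, the authors' library term was 1.00 to 1.14 in the controls (control replicate 1 set to 1), 1.25 to 1.37 at 5 µM and 1.23 to 1.69 at 10 µM, which makes FPKM folds over control smaller than folds per estimated fragment. Among 31 housekeeping genes, 0 were listed at 0 in any library. All 11 markers of colon epithelium were above 0 in every library.

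DKK1 was the most abundant member in every group, followed by FRZB and SFRP5, and SFRP1 was listed at 0 in all 9 libraries. The replicates of DKK1 lay above those of FRZB in each group. FRZB and SFRP5 overlapped in the controls but not at 5 µM or 10 µM, where FRZB was higher. At 5 µM the replicates of SFRP5 overlapped with those of DKK4, and those of DKK4 with those of DKK3, so these neighbours in the order did not separate. Over all 9 libraries together, DKK1 had 2769 fragments, FRZB 530, SFRP5 96, DKK3 62, DKK4 18 and WIF1 16. SFRP2 and DKK2 had 3 fragments each and SFRP4 had 2. The plot of FPKM by gene and dose shows this order and the libraries listed at 0.

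**Figure D1:**
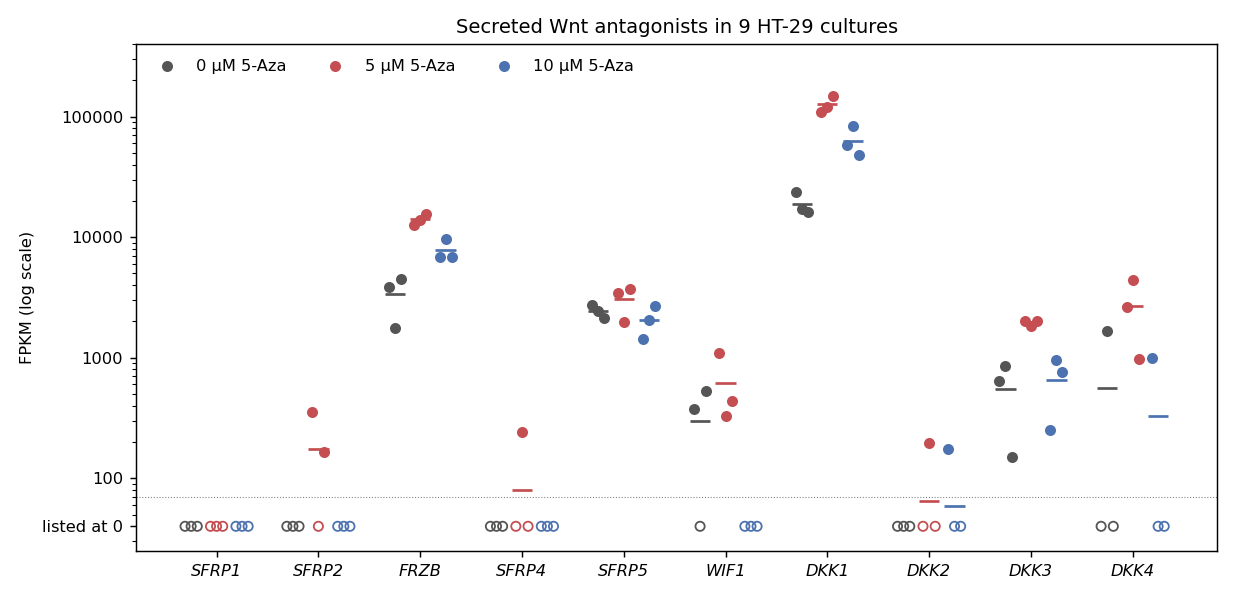
FPKM (log scale) of the 10 Wnt antagonists in each HT-29 library, 3 replicates per dose of 5-Aza, with short lines at the group means. Open circles under the dotted line are libraries listed at 0. DKK1 and FRZB were highest at 5 µM, lower at 10 µM and lowest in the controls, without overlap of the replicates.

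Of the 9 members that could be tested between 5 µM and control, 2 rose, DKK1 and FRZB, and 0 fell (0 also at an unadjusted p under 0.05 past 2-fold). The test was limma on log2(FPKM + 1) over all genes, and a gene was called where the p adjusted by Benjamini-Hochberg did not exceed 0.05 and the change was larger than 2-fold. Among all 20051 genes tested, 14.1% rose and 2.17% fell, so that a rise was common in this comparison. The genes tested include genes near the limit of detection, such as SFRP4 with 2 fragments. At an unadjusted p under 0.05 and past 2-fold, 4 members were higher. The 6 members with more than 3 fragments in a group had a median ratio of fragments, 5 µM over control, of 4.04. This ratio uses the authors' library term, and over 15437 genes its median was 1.05. For those genes the fragments were rounded estimates from transcript length, whereas the fragments of the members were recovered from the steps of each gene. A gene could enter through its higher group alone, as DKK4 did (15 fragments against 2), and a group at 0 was set to 3 fragments. These medians are a description, and their difference was not tested.

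DKK1, which binds LRP5 and LRP6 and blocks their use by Wnt, rose most clearly. Its gene is at chr10:54074041-54077802 (GRCh37, plus strand, 4 exons). In the control replicates 1, 2 and 3 it measured 23469.5, 17129.7 and 16150.4 FPKM (49, 54 and 72 fragments). At 5 µM it measured 108717, 120694 and 149086 FPKM (546, 576 and 801 fragments). At 10 µM the values were 57660.7, 83231.1 and 47570.1 FPKM (153, 349 and 169 fragments). The 3 groups did not overlap, with every 10 µM library between the controls and the 5 µM libraries.

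The mean of DKK1 was 18920 ± 3973 FPKM in the controls, 126200 ± 20730 at 5 µM and 62820 ± 18380 at 10 µM (SD, n = 3 each). From control to 5 µM DKK1 rose 6.67-fold, a log2 difference of 2.74 with SE 0.19 (limma adjusted p = 2.85e-04). From control to 10 µM it rose 3.32-fold, a log2 difference of 1.71 with SE 0.26 (limma adjusted p = 0.0109). Between 5 µM and 10 µM it fell by 1.03 on the log2 scale, SE 0.23, just past both thresholds (limma adjusted p = 0.0479). That last call was kept in 8 of 19 alternative settings: it ended when any library other than 10 µM replicate 2 was left out (adjusted p from 0.0976 to 0.228), and with scaling to the estimated total fragments the difference was -0.82. Single comparisons of 3 against 3 libraries cannot go below p = 0.1 in a two-sided exact permutation test, which is the value DKK1 had in all 3 comparisons.

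FRZB, an sFRP that binds Wnt ligands, showed the same order of doses at a lower level. It lies at chr2:183698002-183731365 (GRCh37, minus strand, 6 exons). The control replicates measured 3880.64, 1779.31 and 4473.56 FPKM (13, 9 and 32 fragments). The 5 µM replicates measured 12657.8, 13973.4 and 15543.9 FPKM (102, 107 and 134 fragments), and the 10 µM replicates 6811.44, 9661.1 and 6841.71 FPKM (29, 65 and 39 fragments). Again no group overlapped with another.

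FRZB rose 4.16-fold from control to 5 µM, from a mean of 3378 ± 1416 to 14060 ± 1445 FPKM (SD, n = 3 each), a log2 difference of 2.16 with SE 0.39 (limma adjusted p = 0.00631). This call ended when limma tested against a fold change of 2 in place of no change (adjusted p = 0.125). The mean at 10 µM was 7771 ± 1637 FPKM. Its log2 difference from control, 1.29 with SE 0.46, missed the threshold (limma adjusted p = 0.0929), although scaling to the estimated total fragments gave 1.80 (adjusted p = 0.034). Its difference between 10 µM and 5 µM was -0.87 with SE 0.25 and also missed it (limma adjusted p = 0.0966), but it was called without 10 µM replicate 2 (-1.04, adjusted p = 0.0282). Both DKK1 and FRZB were highest among the 10 µM libraries in replicate 2, the most deeply sequenced of that group, whose library term per fragment was 1.23 against 1.69 and 1.60 in replicates 1 and 3. The part of the library term in these values was not tested.

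SFRP5, another Wnt-binding sFRP, was measured in all 9 libraries and passed no test. It lies at chr10:99526508-99531756 (GRCh37, minus strand, 3 exons). Its values were 2739.53, 2419.16 and 2138.3 FPKM in the controls, 3416.6, 1997.48 and 3725.98 at 5 µM, and 1437.03, 2046.07 and 2683.28 at 10 µM. Its groups overlapped throughout. The log2 difference between 5 µM and control was 0.28, with a 95% interval from -0.62 to 1.18 (limma adjusted p = 0.554), so that a rise of 2-fold was not outside what these libraries allow. Between 10 µM and control it was -0.28, with an interval from -1.39 to 0.83 (limma adjusted p = 0.677), and the sign turned to 0.23 with scaling to the estimated total fragments. The difference between SFRP5 and either DKK1 or FRZB in their response was not tested.

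SFRP1, SFRP2 and SFRP4, the remaining sFRPs, were near the limit of detection. SFRP1 had 0 fragments in each library, and the floor of 3 fragments used here corresponds to 543 FPKM in control replicate 1. SFRP2 had 2, 0 and 1 fragments in the 5 µM replicates (356.755, 0 and 166.74 FPKM) and 0 in the other 6 libraries. SFRP4 had 2 fragments in 5 µM replicate 2 (241.686 FPKM) and 0 elsewhere. Every fragment of these genes was therefore in a 5 µM library, the group with the highest estimated total of fragments, and no fold is given because both groups were at or below 3 fragments. SFRP2 did not pass the test between 5 µM and control (limma adjusted p = 0.131), and neither did SFRP4 (limma adjusted p = 0.425). SFRP2 was called when 5 µM replicate 2, its library at 0, was left out (adjusted p = 0.00471).

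WIF1, a secreted protein that binds Wnt through its WIF domain, was listed at 0 in all 3 of the 10 µM libraries. It lies at chr12:65444406-65515085 (GRCh37, minus strand, 10 exons). The control replicates measured 376.146, 0 and 528.471 FPKM (1, 0 and 3 fragments), and the 5 µM replicates 1094.59, 329.113 and 438.505 FPKM (7, 2 and 3 fragments). Controls and 5 µM overlapped, whereas every 5 µM library lay above every 10 µM library. The difference between 5 µM and control was not called (limma adjusted p = 0.342, 12 against 4 fragments, a ratio of 1.92 with a counting interval from 0.581 to 8.16).

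WIF1 fell between 5 µM and 10 µM (limma adjusted p = 0.012), and with a floor of 3 fragments over the group it was at least 2.74-fold lower. The same figure was 1.71-fold without 5 µM replicate 1, and 1.64-fold and 1.81-fold without 10 µM replicate 2 and replicate 3. This call rests on 12 fragments against 0. Settings that ended it included a pseudocount of 1000 (adjusted p = 0.0802) and leaving out 5 µM replicate 1 or replicate 3 (adjusted p = 0.0521 and 0.0617), and WIF1 could not enter a test that asked for 10 fragments in a library.

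Of the other Dickkopf genes, DKK3, a divergent member of the family, had replicates at 5 µM above those of both other groups. It lies at chr11:11977754-12031316 (GRCh37, minus strand, 7 exons). The controls measured 644.742, 854.018 and 150.972 FPKM (2, 4 and 1 fragments). The 5 µM replicates measured 2010.23, 1833.41 and 2004.35 FPKM (15, 13 and 16 fragments), and the 10 µM replicates 253.65, 963.08 and 757.806 FPKM (1, 6 and 4 fragments). The 5 µM values lay close together, while controls and 10 µM overlapped.

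The log2 difference of DKK3 between 5 µM and control was 2.15 with SE 0.74 and missed the threshold (limma adjusted p = 0.0628). DKK3 was called in 5 alternative settings, which include scaling to the estimated total fragments (adjusted p = 0.0343) and leaving out control replicate 2 or 3 (adjusted p = 0.0455 and 0.0449). The summed fragments, 44 against 7, gave a ratio of 4.02 with a counting interval from 1.80 to 10.6. The difference of DKK3 between 10 µM and 5 µM was -1.77 with SE 0.64 (limma adjusted p = 0.154).

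DKK4, which binds the LRP co-receptors as DKK1 does, had 0, 2 and 0 fragments in the controls (0, 1670.61 and 0 FPKM). It had 5, 8 and 2 fragments at 5 µM (2621.58, 4414.11 and 980.215 FPKM) and 1, 0 and 0 at 10 µM (992.377, 0 and 0 FPKM). Control replicate 2 lay above 5 µM replicate 3, and so did 10 µM replicate 1, so each group overlapped with the others. DKK4 was not called between 5 µM and control (limma adjusted p = 0.0902), where its fragments gave a ratio of 4.80 with a counting interval from 1.12 to 43.2, and it was called without control replicate 2 (adjusted p = 0.00218). It was not called between 10 µM and 5 µM either (limma adjusted p = 0.136), but was without 10 µM replicate 1 (adjusted p = 0.0102). DKK2 had 2 fragments in 5 µM replicate 2 (194.807 FPKM), 1 in 10 µM replicate 1 (175.186 FPKM) and 0 elsewhere, too few for a fold.

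**Figure D2:**
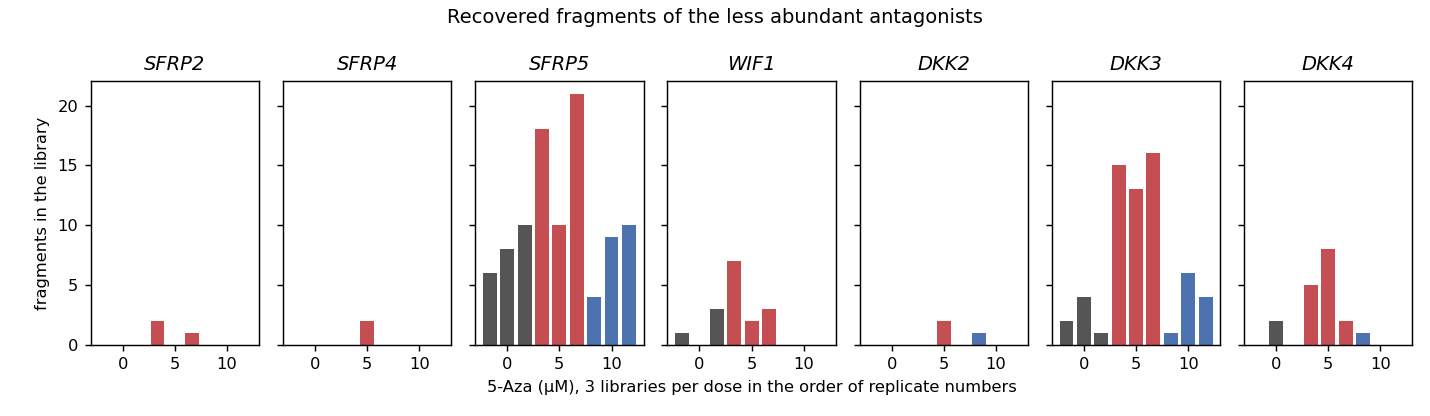
Fragments recovered in each library for the 7 less abundant antagonists that were above 0 anywhere, with bars for the 3 replicates at 0, 5 and 10 µM 5-Aza. DKK3 had 13 to 16 fragments in the 5 µM libraries and 1 to 6 in the others, and WIF1 had 0 at 10 µM.

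Between 10 µM and 5 µM, 9 members could be tested: 2 fell, DKK1 and WIF1, and 0 rose, with 4 below and 0 above at an unadjusted p under 0.05 past 2-fold. Over all 20085 genes tested, 4.82% fell and 0.129% rose. The median ratio of fragments was 0.437 over the 6 members with more than 3 fragments in a group, against 0.851 over 15469 genes. WIF1, with 0 fragments at 10 µM set to 3, entered with a ratio of 0.365, and DKK4 and WIF1 were over 3 fragments at 5 µM only.

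Between 10 µM and control, 7 members could be tested: 1 rose, DKK1, and 0 fell (2 and 0 at an unadjusted p under 0.05 past 2-fold), against 4.07% of the 18928 genes rising and 3.4% falling. The median ratio was 1.47 over 5 members and 0.901 over 14412 genes. WIF1 entered the median of the members with a ratio of 0.699 (0 fragments at 10 µM, set to 3, against 4).

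In each comparison some members did not overlap between the groups. Those were DKK1, FRZB and DKK3, higher at 5 µM than in control (29.4% of all genes tested did so). They were the same 3 genes and WIF1 for 10 µM below 5 µM (25.3%), and DKK1 and FRZB for 10 µM above control (14.4%). The comparisons share groups of libraries, so these patterns are not independent of each other. The plot of differences shows how much wider the intervals of DKK4 and WIF1 are than that of DKK1.

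**Figure D3:**
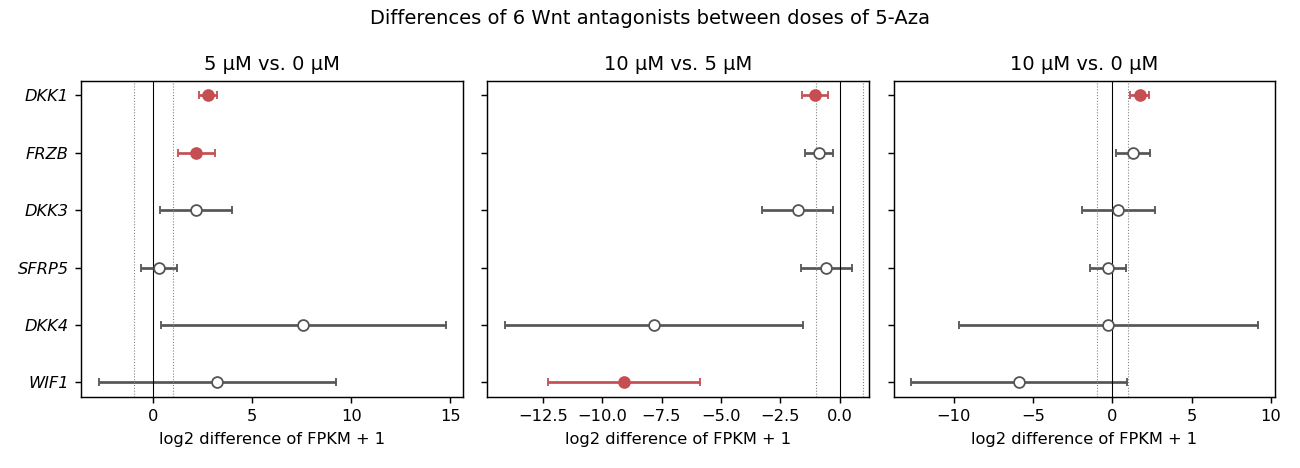
Difference in log2(FPKM + 1) with its 95% interval from limma for the 6 antagonists with more than 3 fragments in a group, in the 3 comparisons (the horizontal scales differ). Filled red points passed the test, open points did not, and dotted lines mark a log2 difference of 1 and -1. DKK1 passed in every comparison, FRZB at 5 µM vs. 0 µM, and WIF1 at 10 µM vs. 5 µM.

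Libraries at 5 µM also differed in genes used as markers of other cell types, although all cultures were of the single line HT-29. In bulk RNA, a change in how many cells express a gene and a change in its RNA per cell cannot be told apart. Of 11 fibroblast markers, 6 of the 10 tested rose from control to 5 µM and 0 fell. The list summed to 23500 to 33000 FPKM in the controls, 104000 to 113000 at 5 µM and 51600 to 58600 at 10 µM, an order of doses like that of DKK1 and FRZB. VIM measured 61.9 FPKM in the controls, 10520 at 5 µM and 1528 at 10 µM on average. COL1A1, COL6A3 and LUM were above 0 in all 9 libraries and rose at 5 µM, whereas PDGFRA was at 0 in all 9 libraries and DCN in 7.

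The epithelial list summed to 84400000 to 101000000 FPKM in the controls, 34500000 to 39000000 at 5 µM and 27500000 to 47700000 at 10 µM. In it KRT8, KRT18 and KRT19 fell at 5 µM while CDX1 and CEACAM5 rose. Of 4 endothelial markers, 3 rose at 5 µM, and the list summed to 1900 to 5030 FPKM in the controls, 9840 to 12400 at 5 µM and 3270 to 3590 at 10 µM. Of 6 leukocyte markers, 1 rose (CD3E), and the list summed to 8570000 to 8820000 FPKM in the controls, 3900000 to 4780000 at 5 µM and 4530000 to 6540000 at 10 µM. Nearly all of that sum was LYZ. All 6 leukocyte markers were above 0 in every 5 µM library, and LYZ, CD14 and CSF1R in all 9 libraries, while PTPRC was at 0 in 3. Of the endothelial markers, PECAM1 and VWF were above 0 in all 9 libraries and rose at 5 µM, while KDR was at 0 in 7. The part of these markers in the results for the antagonists was not tested.

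The receptors of the Dickkopf proteins changed unequally. KREMEN1 and KREMEN2, the Kremen co-receptors, rose from control to 5 µM, and the other 3 of the 5 genes of this list were not called. KREMEN2 rose from 2270 ± 375 to 25970 ± 2930 FPKM (SD, n = 3 each; log2 difference 3.52, limma adjusted p = 2.45e-04) and was at 12200 ± 1110 FPKM at 10 µM. It was called in all 3 comparisons, up in both comparisons with control and down between 10 µM and 5 µM, where the log2 difference of -1.09 became -0.88 under either other scaling and the call was lost. KREMEN1 rose from 26550 ± 4580 to 92150 ± 11800 FPKM at 5 µM (log2 difference 1.80, limma adjusted p = 6.11e-04).

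LRP5, LRP6 and CKAP4, the remaining receptors of Dickkopf proteins, were less than 2-fold lower at 5 µM than in control. Their log2 differences were -0.53, -0.36 and -0.33, which became -0.23, -0.06 and -0.02 with scaling to the estimated total fragments. LRP5 was the most abundant of the list, with 788300 ± 32300 FPKM in the controls.

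Of 11 other antagonists acting outside the cell, 10 were in the files and 8 were tested between 5 µM and control, of which 2 rose and 0 fell. NOTUM, an enzyme that removes the lipid from Wnt proteins, rose from 6516 ± 2360 to 25920 ± 734 FPKM (log2 difference 2.05, limma adjusted p = 0.002) and fell again between 5 µM and 10 µM, to 8542 ± 2860 FPKM (log2 difference -1.66, limma adjusted p = 0.0215). DKKL1, a Dickkopf-like protein, was listed at 0 in the controls and measured 1857 ± 1260 FPKM at 5 µM (limma adjusted p = 0.00107). Whole fragments were recovered for the members only, where 1 fragment was worth 70 to 552 FPKM at 5 µM. Calls of pathway and marker genes listed at 0 in a group can therefore rest on few fragments. Their p-values come from log2(FPKM + 1), and other pseudocounts are not given for them. In the comparison of 10 µM with control limma called 0 of 8, of which 1 had an unadjusted p under 0.05.

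Among the Wnt ligands, 6 of 18 tested rose between control and 5 µM and 0 fell. WNT1, WNT9A and WNT9B were each listed at 0 in all controls and measured 4241 ± 1220, 1435 ± 368 and 1627 ± 1310 FPKM at 5 µM. WNT10B rose from 479.4 ± 237 to 14840 ± 1140 FPKM (limma adjusted p = 6.58e-04), a ratio of means of 31. In the controls 1 fragment of a member was worth 85 to 1261 FPKM, so this ratio may rest on few control fragments. A single ligand of 18 tested fell between 5 µM and 10 µM, WNT5B, from 1115 ± 94.1 FPKM to a listing at 0. WNT10B was the 1 ligand of 16 tested that was called up at 10 µM against control, at 4871 ± 2130 FPKM (log2 difference 3.37, limma adjusted p = 0.0231).

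Of the Frizzled and other Wnt receptors, 2 of 12 tested rose at 5 µM, FZD2 and FZD9. FZD2 rose from 1333 ± 312 to 9374 ± 1420 FPKM (log2 difference 2.83, limma adjusted p = 0.00105), and it fell between 5 µM and 10 µM, to 2984 ± 768 FPKM. FZD9 was listed at 0 in the controls and measured 3395 ± 1260 FPKM at 5 µM. In the R-spondin branch, which protects Frizzled receptors from removal, LGR6 rose at 5 µM from 1835 ± 905 to 13030 ± 1750 FPKM, RSPO4 from a listing at 0 to 316 ± 60 FPKM, and RNF43, the ligase that removes Frizzled, fell by 1.02 on the log2 scale. The RNF43 call was lost under either other scaling. At 10 µM against control LGR6 rose while LGR4 and LGR5 fell, the calls of both latter genes being lost with scaling to the estimated total fragments.

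Of 13 cytoplasmic regulators of beta-catenin, limma called 0 in any comparison, while 8, 1 and 7 had an unadjusted p under 0.05 with changes below 2-fold (5 µM vs. 0 µM, 10 µM vs. 5 µM and 10 µM vs. 0 µM). With scaling to the estimated total fragments, DVL2 was called up at 5 µM. So were FZD4, WNT5B, TLE2 and ASCL2 of the other pathway lists, which were not called on the authors' scale. Of 12 TCF/LEF factors and cofactors 1 rose at 5 µM, LEF1, from 98 ± 170 to 1550 ± 164 FPKM (limma adjusted p = 0.0377). The control mean of LEF1 was near the floor.

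The 16 target genes of beta-catenin, all tested, moved in both directions at 5 µM, 3 up (NKD1, NOTUM and LEF1), 3 down (MYC, CD44 and RNF43) and 10 not called. AXIN2, a target that reports pathway activity in many cells, measured 304700 ± 10100 FPKM in the controls, 285600 ± 5100 at 5 µM and 292100 ± 40200 at 10 µM, and it was not called in any comparison. MYC fell by 1.47 on the log2 scale at 5 µM (limma adjusted p = 2.97e-04) and CD44 by 1.25 (limma adjusted p = 3.8e-04), the latter missing the fold threshold with scaling to the estimated total fragments. At 10 µM, 3 were called down against 5 µM, NKD1, LGR5 and NOTUM, and 2 were called down against control, LGR5 and EPHB2, whose calls against control were lost with scaling to the estimated total fragments. NOTUM, LEF1, RNF43 and LGR5 each stand on more than 1 of these lists. The plot of the pathway lists shows each tested gene at 5 µM vs. 0 µM and at 10 µM vs. 5 µM.

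**Figure D4:**
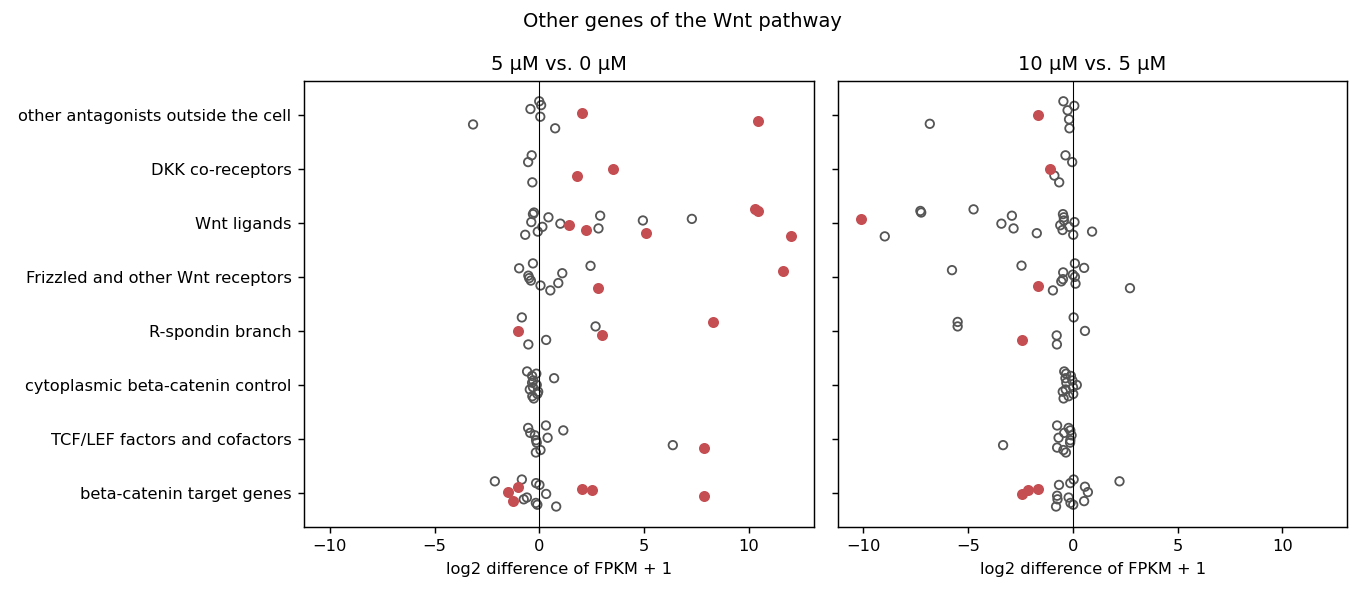
Difference in log2(FPKM + 1) of the tested genes of 8 Wnt pathway lists at 5 µM vs. 0 µM (left) and 10 µM vs. 5 µM (right), 1 point per gene. Filled red points passed the test, which 6 Wnt ligands did at 5 µM, and differences beyond about 5 on this scale come from genes at or near 0 in a group.

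For the members above 0 in all libraries, the genes with the most similar pattern over the 9 libraries were ranked by Pearson's r on log2(FPKM + 1000) among 15277 genes. DKK1 was most like AMN1 (r = 0.994), PTPRU, a receptor tyrosine phosphatase (0.993), and RAB43, a small GTPase (0.992). FRZB was most like CENPO, a centromere protein (0.986), C17orf72 (0.984) and LAPTM5, a lysosomal membrane protein (0.983). DKK3 was most like EBF4 (0.983), SDF2L1 (0.977) and CTTN, the actin-binding cortactin (0.974). SFRP5, which passed no test, reached 0.923 with MGC72080, 0.91 with CN5H6.4 and 0.905 with ZNF668. These are descriptions over 9 libraries that share the dose groups and the library terms, and many genes had the same order of doses.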

How the data were processed

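RNA-Seq libraries (TruSeq, paired-end, 100 bases) were made from 9 HT-29 cultures. The authors filtered reads with FASTX-Toolkit, used TopHat for alignment to hg19 and Cufflinks for the deposited FPKM values per gene; Cufflinks options and annotation version are not given in the sources used here. Gene counts from HTSeq were not used here. Each file held 24934 entries under 23284 symbols, and FPKM of repeated symbols were summed (each of the 10 members has 1 entry).

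Each pair of groups was compared on log2(FPKM + 1) with limma 3.58.1 in R 4.3.3 (lmFit, eBayes with trend, 6 libraries). All genes whose largest FPKM reached 10 were tested. Calls needed a Benjamini-Hochberg adjusted p of 0.05 or less and a change beyond 2-fold. The cutoff of 10 FPKM lies below the value of 1 member fragment, 70 FPKM or more. Genes with a single fragment could thus be tested, and the shares over all genes include them. Single genes also had a two-sided exact permutation test. A pseudocount of 1 lies far below the value of 1 fragment, so log2 differences against a group listed at 0 are inflated and no fold is read from them. Fold changes elsewhere are ratios of mean FPKM.

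Fragments were recovered from the value of 1 fragment, set by 12 microRNA genes of 110 bases (46 of 46 values whole within 0.01) for the library and by transcript length for the gene; the length relation held within 15% for 66.4% of 1190 genes, so totals per library are estimates. Intervals on fragments are exact at 95% and cover counting error only. Python packages were matplotlib 3.10.9 for figures, scipy 1.17.1, pandas 2.3.3 and numpy 2.4.6. The scripts were tested on simulated data.

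The members and gene lists were chosen with earlier results of these data known. All 10 members are named; of each pathway list, at most 3 called genes per comparison without overlap of replicates and with the largest log2 differences, plus the whole lists of Dickkopf receptors and beta-catenin targets; and for members above 0 throughout, the 3 most similar genes. Markers are named from their whole lists, and DVL2, FZD4, TLE2 and ASCL2 were named after their values were seen. Alternatives were other pseudocounts, filters, thresholds and scalings, a joint fit of 9 libraries, the replicate number as a block, and each library left out. Scaling to the estimated total fragments was added after seeing the data. No 2 libraries held identical values. p-values measure the spread between cultures of 1 cell line.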

Additional observations from a re-analysis of the deposited data

How the results depend on the processing

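The rise of DKK1 at 5 µM kept its call in all 19 alternatives and that of FRZB in 18. Members called up at 5 µM vs. 0 µM numbered 2, against 1 when tested against a fold change of 2 and 2 to 4 with 1 library left out (4, adding DKK3 and DKK4, without 0 µM replicate 2). Members called down at 10 µM vs. 5 µM numbered 2, but 1 with a pseudocount of 0.1 or 1000, no filter, at least 10 estimated fragments, a test against a fold change of 2, median-of-ratios scaling or total scaling, and 0 to 3 with 1 library left out (0 without 5 µM replicate 1 or 3). Members called up at 10 µM vs. 0 µM numbered 1, but 2 with at least 10 estimated fragments, all 9 samples in one fit or total scaling, which add FRZB, and 0 against a fold change of 2. The cause was not tested.

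The sign turned for DKK2 at 10 µM vs. 5 µM (0.07 with median-of-ratios and 0.09 with total scaling, and -2.54 to 2.49 with 1 library left out), for SFRP5 at 10 µM vs. 0 µM (0.23 with total scaling), for DKK3 at 10 µM vs. 0 µM (-0.38 without 0 µM replicate 3, to 0.97 with other libraries left out) and for DKK4 there (-3.57 to 3.32 with 1 library left out), none of them called.

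Same-numbered replicates did not vary together (correlations of -0.221 to 0.168 over 9 pairs, -0.337 to 0.251 over 18 others). The values thus showed no pairing by number, and the labels state none. Whether cultures with the same number were handled together is not known here. With the replicate block 2 members rose at 5 µM, 0 fell between 10 µM and 5 µM, and 1 rose at 10 µM.

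Medians are given for 5 µM vs. 0 µM, 10 µM vs. 5 µM and 10 µM vs. 0 µM, in this order. Over all genes tested, the median log2 difference was 0.14, -0.31 and -0.15 on the authors' scale. Over genes above 0 in all 6 libraries of a comparison it was -0.04, -0.24 and -0.24 on that scale. With total scaling the latter became 0.26, -0.03 and 0.28. Calls over all genes moved accordingly: at 10 µM vs. 0 µM from 771 up and 644 down to 1757 and 105 with total scaling, and to 284 down with median-of-ratios; 1174 rose with 9 samples in one fit. At 5 µM vs. 0 µM 436 fell, against 156 with total scaling. At 10 µM vs. 5 µM 26 rose and 969 fell, against 11 and 407 with the block, 55 and 56 rising under the other scalings and 16 with at least 10 fragments. Without a fold threshold 4263 rose and 3553 fell at 5 µM (2818 and 436 with it), 64 rose at 10 µM vs. 5 µM and 1837 fell at 10 µM vs. 0 µM. Tested against a fold change of 2, the counts were 1463 and 70, 7 and 374, and 145 and 16. With 1 library left out, calls down ranged from 176 (without 5 µM replicate 3) to 1873 (without 10 µM replicate 2) between 10 µM and 5 µM, and from 165 (without 0 µM replicate 2) to 1500 (without 10 µM replicate 2) between 10 µM and 0 µM. Calls up fell to as few as 337 (without 10 µM replicate 3) between 10 µM and 0 µM and ranged from 12 (without 5 µM replicate 3) to 64 (without 10 µM replicate 2) between 10 µM and 5 µM.

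The fragments behind SFRP1, SFRP2, SFRP4 and DKK2, at most 3 per gene over 9 libraries, allow no statement on their response.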
